A study of Isostichopus badionotus with 6 samples.

Results

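The 2 assembled loci described here carry database names of stress signalling genes in the sea cucumber Isostichopus badionotus. Locus 5407 (Locus_5407) holds the transcript matched to MAPK14-1 of the killifish Fundulus heteroclitus (transcript 2, 4979 nt), and locus 7981 (Locus_7981) holds the transcript matched to a transient receptor potential channel of the TRPM2-like type in the marine worm Priapulus caudatus (transcript 11, 3554 nt). All counted transcripts of both loci were taken as members, by locus number and whatever their level, though with earlier results of these data known. They came to 6 of 129776 counted transcripts, 2 in the MAPK14-1 locus and 4 in the TRPM2-like locus, which are 2 of 80132 loci. Only the 2 named transcripts are in the annotation used here, so the name of a locus rests on 1 of its transcripts. The paper describes that annotation as its transcripts that differed between wild and farmed animals and had a nucleotide database hit. The annotation as used here holds 326 transcripts, more than the paper's text counts for that set, and the difference was not resolved. A transcript absent from it may still have a match. A database match gives a likeness, not a tested function.

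Body wall RNA was sequenced from 6 captive animals, each 1 library. Captivity 1 to 4 are labelled as juveniles with the environment captivity, and Captivity 5 and 6 as adults with the environment captivity adapted. The series design text calls all 6 farmed juveniles, and the labels were followed. The juveniles were taken as the farmed animals of the study, first generation offspring of brood-stock kept in tanks, while stage and captive history differ together between the groups and cannot be told apart.

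Background from other animals gives the names their meaning. MAPK14 is a p38 mitogen-activated protein kinase, which upstream kinases switch on by phosphorylation under heat, osmotic and oxidative stress and immune signals, and which then phosphorylates further kinases and transcription factors. TRPM2 is, in mammals, a calcium-permeable channel of the cell membrane that opens with ADP-ribose and is sensitive to oxidants, so that oxidative stress lets calcium enter the cell. Kinase activity and channel opening are set on the protein, and RNA levels do not measure them.

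Counted reads came to between 21714696 and 31742950 per animal. Levels are given as CPM, the reads of a transcript relative to the size of its library, computed on totals scaled by TMM. TMM is a method that sets a scaling factor for each library from the bulk of the transcripts. The factors ran from 1.04 to 1.32 for juveniles, with 0.973 for Captivity 5 and 0.586 for Captivity 6, so Captivity 6 stands apart in scaling. Loci matched to mitochondrial and ribosomal RNA took 30.6% of its reads, against 14.8% to 22.4% in the other 5 animals. Collagen transcripts, the connective tissue markers, were detected in every animal. With TMM they summed to 59.4 to 253 CPM in juveniles and 369 to 480 CPM in adults, without overlap. Taken singly, the collagen transcripts of loci 121075 and 121087 did overlap between the groups. Of 9979 transcripts past the filter given below, 20.8% did not overlap between the groups in TMM-scaled CPM. On library totals alone the collagen sum of Captivity 6 lay under that of the juvenile Captivity 3, so the groups overlapped. Muscle markers summed to 118 to 2011 CPM in juveniles, lowest in Captivity 2, and to 1934 to 2179 CPM in adults. The juvenile range of this sum came mostly from myosin heavy chain, at 41.3 CPM in Captivity 2 and 1923 CPM in Captivity 4. LMOD3 and SMTNL1 were also lowest in Captivity 2. Alpha-actinin-2 was not, at 71.1 CPM there and 28.3 CPM in Captivity 3. Cilia markers summed to 17.2 to 48.4 CPM in juveniles and at most 19.7 CPM in adults. Neural markers summed to 44.4 to 74.2 CPM and 69.1 to 86.3 CPM in these groups, and no marker was at 0 in all animals. The neural sum came mostly from glycine transporter 1 and neural alpha2 tubulin, whose means were higher in adults. The other neural markers went the opposite way. ELAV averaged 3.99 CPM in juveniles and 0.953 CPM in adults, and synaptogyrin 1a averaged 1.78 and 0.639 CPM. The part of these differences in the results below was not tested, and in bulk tissue fewer cells of a type and less RNA per cell cannot be told apart.

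The TRPM2-like locus was well represented in the captive body wall, and the MAPK14-1 locus was not rare. Summed over its transcripts and averaged over 6 animals, the TRPM2-like locus stood at 71.4 CPM, rank 1384 from the top of 63298 loci with a count. The MAPK14-1 locus stood at 8.45 CPM, rank 8222. These sums take in only transcripts that were counted. The identifiers of the MAPK14-1 locus number its transcripts out of 8, of which 2 were in the table, and those of the TRPM2-like locus out of 18, of which 4 were in the table. This is usual for the table: over 41128 loci with several assembled transcripts, the median share of transcripts in the table was 33.3%.

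In the MAPK14-1 locus, the named transcript 2 was detected in every animal. Its counts were 187, 130, 112 and 311 in Captivity 1 to 4, and 140 and 52 in Captivity 5 and 6. Scaled, the juveniles stood at 5.25, 5.74, 3.30 and 8.29 CPM, and the adults at 6.05 and 3.39 CPM. On this scale Captivity 4 was highest and Captivity 3 lowest, both of them juveniles, and both adults fell within the juvenile range. The juvenile mean was 5.64 ± 2.05 CPM (SD, n = 4), and the highest animal stood 2.51 times above the lowest. On library totals alone Captivity 6 was instead the lowest animal, at 1.99 CPM where no juvenile was under 3.74 CPM, so the transcript missed the study-like filter, which asked 3 or more juveniles and both adults to reach 3 CPM.

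The other counted transcript of this locus, transcript 7 (5337 nt, not in the annotation used here), behaved differently from animal to animal. It had 31, 73, 167 and 129 counts in Captivity 1 to 4, 144 in Captivity 5 and 0 in Captivity 6. Scaled, the juveniles stood at 0.870, 3.22, 4.92 and 3.44 CPM, with a mean of 3.11 ± 1.68 CPM (SD, n = 4), and Captivity 5 at 6.23 CPM. The adults thus lay on either side of all the juveniles. The count of 0 in Captivity 6 allows a level of up to 0.195 CPM, by a floor of 3 counts that covers counting error only. Of 21376 transcripts with at least 30 counts in 5 or more animals, 192 were at 0 in the remaining animal, 79 of them in Captivity 6.

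**Figure D1:**
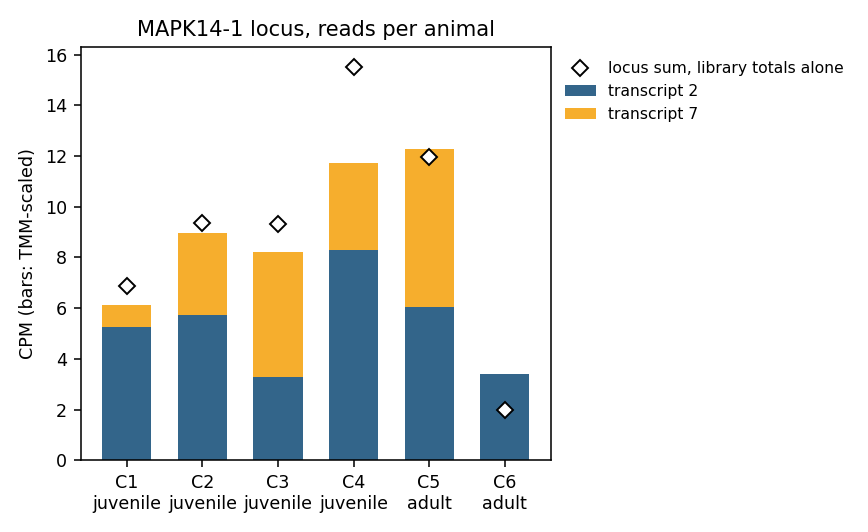
Level of the MAPK14-1 locus in each animal (C1 to C6, Captivity 1 to 6), in CPM; bars stack the TMM-scaled levels of transcript 2 and transcript 7, and diamonds give the locus sum on library totals alone. Transcript 7 is missing from Captivity 6, where transcript 2 stands at 3.39 CPM, and reaches 6.23 CPM in Captivity 5.

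Together the transcripts gave the MAPK14-1 locus 218, 203, 279 and 440 reads in Captivity 1 to 4, and 284 and 52 reads in Captivity 5 and 6. The locus sums were 6.12, 8.96, 8.22 and 11.7 CPM in the juveniles (8.76 ± 2.32 CPM, SD, n = 4), against 12.3 and 3.39 CPM in Captivity 5 and 6. With TMM scaling the highest and the lowest animal of the 6 were both adults, 3.63-fold apart, and the juveniles lay between them, 1.92-fold apart. Without TMM Captivity 6 was still lowest, at 1.99 CPM, but the juvenile Captivity 4 was highest, at 15.5 CPM, with Captivity 5 at 11.9 CPM.

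Which transcript held the MAPK14-1 reads changed from animal to animal. Transcript 2 took 85.8% of the locus reads in Captivity 1 (95% Wilson interval 80.5 to 89.8%), 64.0% in Captivity 2 (57.2 to 70.3%), 40.1% in Captivity 3 (34.6 to 46.0%) and 70.7% in Captivity 4 (66.3 to 74.7%). It took 49.3% in Captivity 5 (43.5 to 55.1%) and 100% of 52 reads in Captivity 6 (93.1 to 100%). These intervals cover counting error only, and those of Captivity 1, Captivity 3 and Captivity 6 are clear of each other. Among juveniles alone, transcript 2 had 6.03 reads for each read of transcript 7 in Captivity 1 and 0.671 in Captivity 3. As both counts come from one library, this ratio does not depend on how libraries are scaled.

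The spread of this share was wide beside that of other loci. With at least 50 reads in every animal and at least 2 transcripts, 6463 loci could be set beside it, each by the share of its leading transcript. The SD over 6 animals was 22.3 percentage points for MAPK14-1, higher than in 98.2% of those loci, against a median of 5.64 points. Among 3045 loci of like depth the percentile was 98.1. The loci were not matched on the mean share of the leading transcript (68.3% for MAPK14-1) or on the number of transcripts, on which this SD also depends. Without Captivity 6 the SD was 17.9 points, at percentile 96.2 of 7461 loci, and in the juveniles alone 19.0 points, at percentile 96.1 of 7942 loci. The minimum of 50 reads and the runs without Captivity 6 were chosen after the data had been seen.

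In the TRPM2-like locus most reads lay in a transcript that is not in the annotation used here. Transcript 6 (5210 nt) had 1934, 1881, 1646 and 2182 counts in Captivity 1 to 4, and 1242 and 940 in Captivity 5 and 6. Scaled, it stood at 54.3, 83.0, 48.5 and 58.2 CPM in the juveniles (61.0 ± 15.2 CPM, SD, n = 4) and at 53.7 and 61.2 CPM in the adults. With TMM scaling Captivity 2 was highest, and the other 5 animals lay between 48.5 and 61.2 CPM with both adults among the juveniles. On library totals alone the groups did not overlap, with the adults at 52.2 and 35.9 CPM under juveniles of 54.9 to 86.6 CPM.

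The named transcript 11 was the smaller product of the locus. It had 309, 246, 267 and 464 counts in Captivity 1 to 4, and 246 and 268 in Captivity 5 and 6. Scaled, the juveniles stood at 8.67, 10.9, 7.87 and 12.4 CPM (9.94 ± 2.05 CPM, SD, n = 4) and the adults at 10.6 and 17.5 CPM. With TMM scaling Captivity 6 was the highest animal, and Captivity 5 lay inside the juvenile range. Captivity 4 was highest on library totals alone, at 16.4 CPM, and both adults lay inside the juvenile range, at 10.3 and 10.2 CPM. Per kilobase of transcript the juvenile level was 2.80 ± 0.578 CPM for transcript 11 and 11.7 ± 2.92 CPM for transcript 6, against 1.13 ± 0.413 CPM for transcript 2 and 0.583 ± 0.314 CPM for transcript 7 of MAPK14-1 (SD, n = 4 each).

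The remaining members of the TRPM2-like locus were short and close to the floor. Transcript 18 (429 nt) had 14, 9, 16 and 4 counts in Captivity 1 to 4, against 0 and 3 in Captivity 5 and 6. Transcript 12 (263 nt) had 2 and 4 counts in Captivity 1 and 2 and 0 in the other 4 animals. Neither was used for a fold, as the adults were at or under 3 counts.

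Over all its transcripts the TRPM2-like locus had 2259, 2140, 1929 and 2650 reads in Captivity 1 to 4, and 1488 and 1211 in Captivity 5 and 6. Its levels were 63.4, 94.4, 56.9 and 70.7 CPM in the juveniles (71.3 ± 16.4 CPM, SD, n = 4), against 64.4 and 78.9 CPM for the adults. The adults lay among the juveniles, and all 6 animals were within 1.66-fold. On library totals alone the groups no longer overlapped, with juveniles at 64.4 to 98.6 CPM and adults at 46.2 and 62.6 CPM, so the overlap of the groups depends on the scaling.

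**Figure D2:**
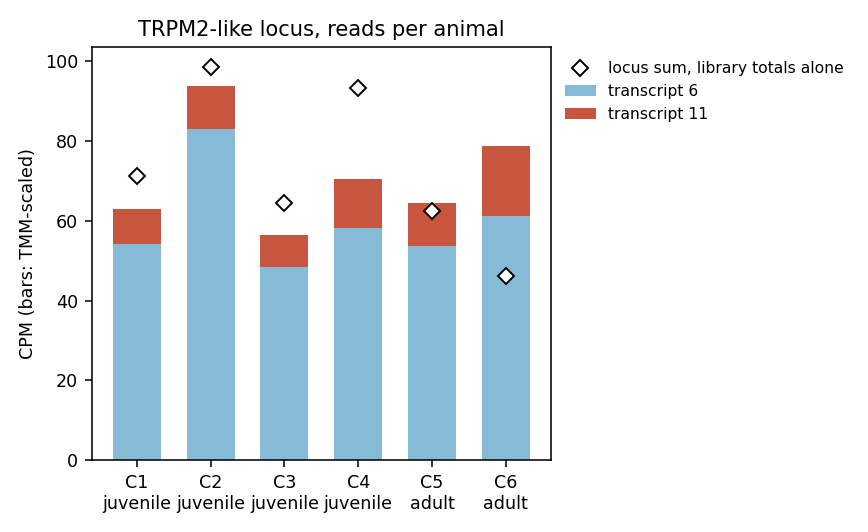
Level of the TRPM2-like locus in each animal (C1 to C6, Captivity 1 to 6), in CPM; bars stack the TMM-scaled levels of transcript 6 and the named transcript 11, and diamonds give the sum of all 4 transcripts on library totals alone. Transcript 6 makes up most of each bar, and the diamonds of the adults lie under those of every juvenile.

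The named transcript held the smaller part of the TRPM2-like reads in every animal. It took 13.7% of the locus reads in Captivity 1 (95% Wilson interval 12.3 to 15.2%), 11.5% in Captivity 2 (10.2 to 12.9%), 13.8% in Captivity 3 (12.4 to 15.5%) and 17.5% in Captivity 4 (16.1 to 19.0%). In Captivity 5 it took 16.5% (14.7 to 18.5%) and in Captivity 6 it took 22.1% (19.9 to 24.6%), an interval clear of the other 5. Transcript 6 held between 77.6% and 87.9% in every animal. The SD of that leading share was 3.54 points, at percentile 30.8 of the 6463 loci and 42.2 of 1350 loci of like depth, against 22.3 points for MAPK14-1.

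Pooled over animals, the named transcript held 63.1% of the MAPK14-1 reads and 15.4% of the TRPM2-like reads. Among the annotated transcripts, a named transcript was often not the main one of its locus. The paper gives these transcripts as differing between wild and farmed animals, so they are no sample of all named transcripts. Of 260 annotated transcripts in loci with several counted transcripts, 132 (50.8%) led their locus, the median share was 42.7%, and 71 (27.3%) held under 20%. Counts of unique matches depend on which stretches a transcript shares with others of its locus, and the sources used here do not say whether counting used strand, so levels of single transcripts are less certain than locus sums.

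**Figure D3:**
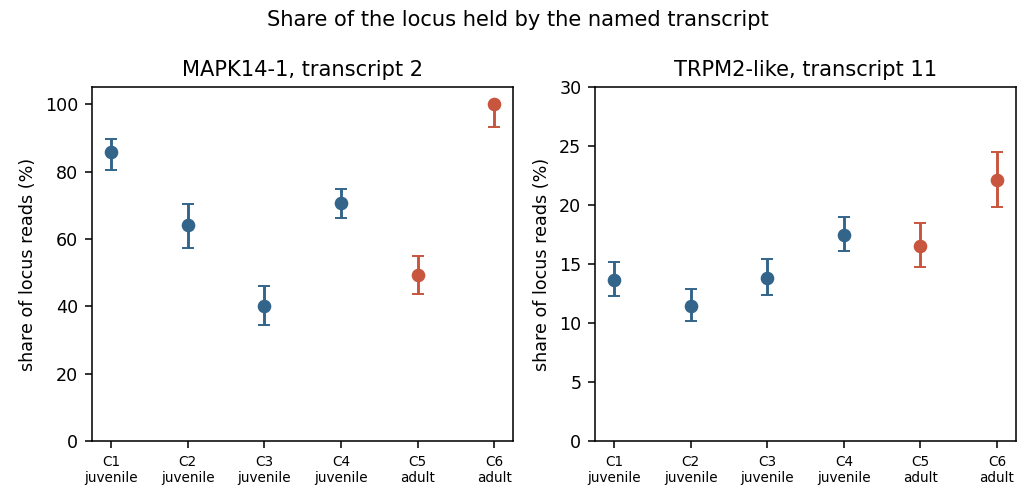
Share of locus reads held by the named transcript in each animal, in percent, with 95% Wilson intervals; juveniles are blue and adults red, and the vertical axes differ. For MAPK14-1 the shares run from 40.1% to 100% with juveniles and adults mixed, and for the TRPM2-like locus from 11.5% to 22.1%.

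Juveniles were then compared with adults by edgeR's quasi-likelihood test with Benjamini-Hochberg adjustment, and 0 members or locus sums passed an adjusted p of 0.05. The background was 0% called of 9979 transcripts that passed the filter, where 828 (8.3%) had an unadjusted p under 0.05. DESeq2 called 190 and the edgeR exact test 11 of these transcripts, with no member among them. The groups did not overlap in TMM-scaled CPM for 20.8% of these transcripts, and overlapped for both members among them, transcripts 6 and 11 of TRPM2-like. Transcript 11 of TRPM2-like had a log2 fold change, juvenile minus adult, of -0.50 (SE 0.36, edgeR adjusted p = 0.648). Transcript 6 had 0.09 (SE 0.37, edgeR adjusted p = 0.954). The median over all tested transcripts was 0.11. The TRPM2-like locus sum had -0.09 (SE 0.36, edgeR adjusted p = 0.946), where 0% of 8876 loci were called.

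The MAPK14-1 members missed the filter and were taken from the fit without one, where 0.00652% of 107370 transcripts and 0.019% of 63298 loci were called, 6.06% of transcripts had an unadjusted p under 0.05, and the median log2 fold change over all transcripts was 0.57. Transcript 2 had a log2 fold change of 0.08 (SE 0.55, edgeR adjusted p = 0.965), and transcript 7 had -0.16 (SE 1.11, edgeR adjusted p = 0.967). The locus sum had -0.02 (SE 0.53, edgeR adjusted p = 0.991). This fit set its own TMM factors, so its folds can differ, also in sign, from those of the CPM printed above. With 2 adults that disagree 3.63-fold, the locus sum ran from -0.65 without Captivity 6 to 1.14 without Captivity 5, neither of them called.

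Scaling changed the sign of several of these values. On library totals alone the median over all tested transcripts rose to 0.67, and transcript 11 stood at 0.17, the TRPM2-like locus sum at 0.59 and the MAPK14-1 locus sum at 0.56. Transcript 2 of MAPK14-1 kept its sign and moved from 0.08 to 0.75. Relative to the median of their own fits all these values were lower. That median was 0.67 for transcripts and 0.76 for loci past the filter. Without filter, as fitted for MAPK14-1, it was 1.29 for transcripts and 1.25 for loci.

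**Figure D4:**
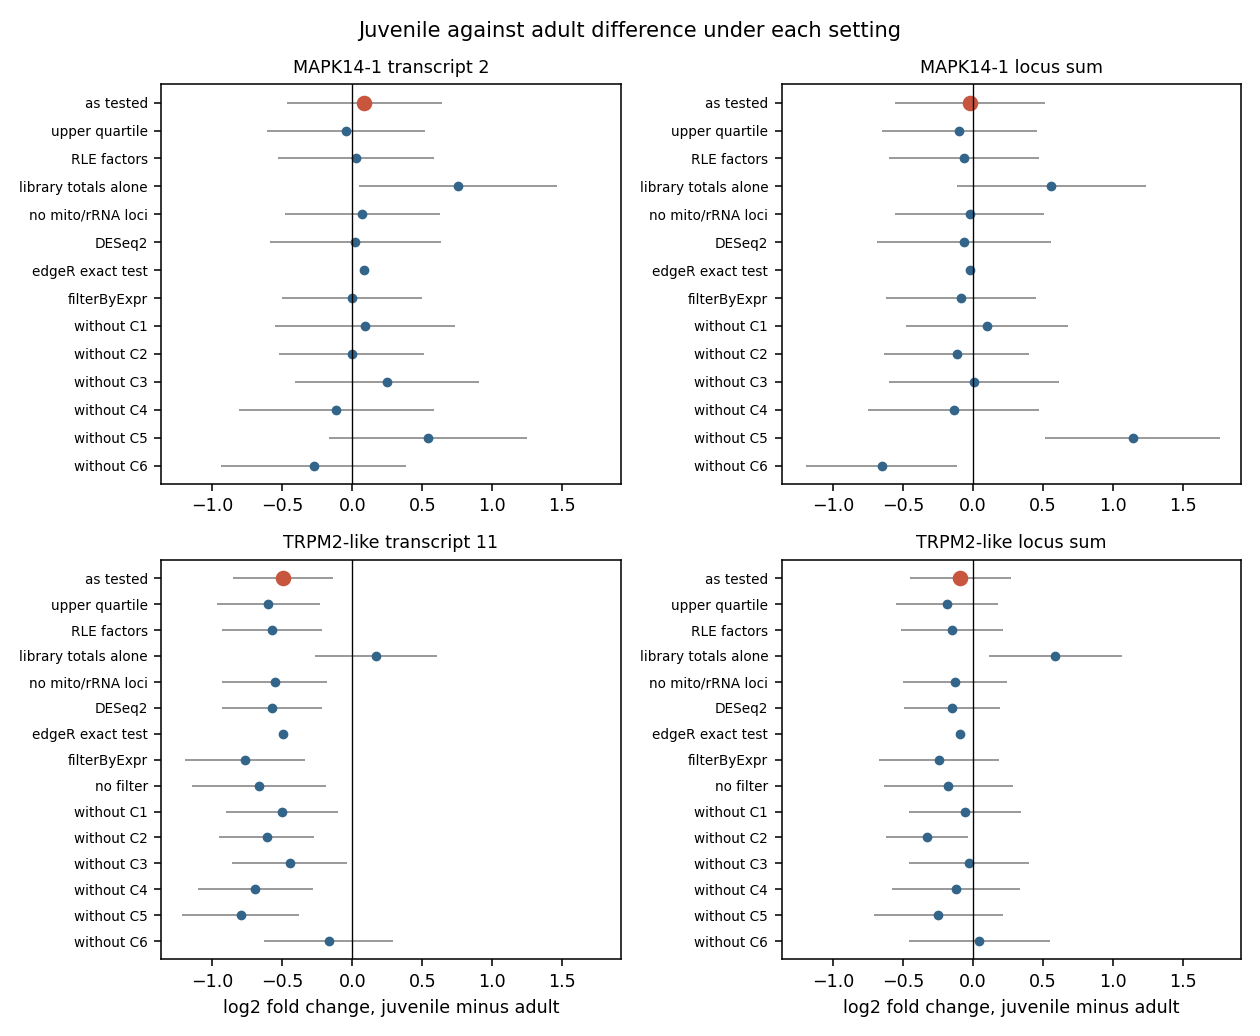
Log2 fold change, juvenile minus adult, of each named transcript and locus sum as tested (red) and under each alternative (blue), with the SE as lines (the edgeR exact test gives none); RLE factors are those of DESeq2. The MAPK14-1 locus sum runs from -0.65 to 1.14 with either adult left out, and library totals alone moves every value to the right.

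No difference in the make-up of the loci was detected between the groups. For MAPK14-1 the share of transcript 2 was 65.2 ± 19.0% in juveniles (SD, n = 4) and 74.6% as the mean of the adults, a difference of -9.49 points (exact permutation test, two-sided, p = 0.8). Without Captivity 6 the difference was 15.9 points and without Captivity 5 it was -34.8 points, so the direction rests on single adults. For TRPM2-like the share of transcript 11 was 14.1 ± 2.49% in juveniles (SD, n = 4) and 19.3% as the mean of the adults, a difference of -5.20 points (exact permutation test, two-sided, p = 0.267). Without Captivity 6 this difference was -2.40 points and without Captivity 5 it was -8.00 points. With 15 assignments of the animals the smallest p this design allows is 0.133. In a test of transcript usage over 10099 loci (diffSpliceDGE of edgeR, Simes p per locus), 0.0297% of loci were called and 3.08% had an unadjusted p under 0.05, and the unadjusted edgeR p was 0.926 for MAPK14-1 and 0.540 for TRPM2-like. The TRPM2-like test took in 3 transcripts, and its smallest p (edgeR, unadjusted, 0.180) was that of transcript 18, which is close to the floor. With the 3 CPM filter, which kept transcripts 6 and 11 only, the unadjusted edgeR p for TRPM2-like was 0.751. Without Captivity 5 the unadjusted edgeR p for MAPK14-1 was 0.00691, which did not pass adjustment.

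The spread of the single transcripts over the animals depended in part on the scaling. With TMM the SD of log2 CPM over 6 animals was 0.27 for transcript 6 of TRPM2-like, at percentile 7.95 among transcripts of like level, and 0.41 for transcript 11, at percentile 21.9. This order turned on library totals alone, with 0.45 for transcript 6 (percentile 15.9) and 0.31 for transcript 11 (percentile 2.27). With TMM it was 0.50 for transcript 2 of MAPK14-1, at percentile 30.3, and 2.12 for transcript 7, at percentile 94.2. Without the adults transcript 7 had an SD of 1.06, at percentile 74.0. Its SD over 6 animals takes in the count of 0 in Captivity 6, whose log2 CPM is set by the prior count of 2 added to each count.

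Other signalling and stress genes of the annotation were set beside the members. All annotated names come from transcripts that the study selected on captive libraries, so they are not independent evidence of a direction. Of 11 transcripts for kinases, phosphatases and their partners, 9 were tested, 4 were higher in juveniles and 5 in adults, 0 were called (1 at an unadjusted edgeR p under 0.05), and the median log2 fold change was -0.14. PP1-beta-like, a catalytic subunit of a protein phosphatase, had the highest mean level (54.0 ± 7.47 CPM, SD, n = 4 juveniles, 79.5 CPM as the adult mean). The receptor phosphatase RPTP-beta-like had the largest difference, 1.17 (SE 0.48, edgeR adjusted p = 0.560).

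Of 7 transcripts for calcium handling and ion channels, 4 were tested, 1 was higher in juveniles and 3 in adults, 0 were called (1 at an unadjusted edgeR p under 0.05), and the median was -0.52. With the looser filterByExpr all 7 were tested, 4 of them higher in juveniles, and the median was 0.04. SERCA, the pump that returns calcium to the endoplasmic reticulum, had the highest mean level, 43.3 ± 27.8 CPM (SD, n = 4 juveniles) and 82.5 CPM as the adult mean. UNC79, a subunit of the sodium leak channel complex, had the largest difference, -1.06 (SE 0.36, edgeR adjusted p = 0.560). With TMM scaling every juvenile stood between 5.82 and 12.1 CPM and the adults at 18.9 and 19.9 CPM. Such a lack of overlap was found for 20.8% of all tested transcripts. On library totals alone Captivity 6 lay under the juvenile Captivity 4 for UNC79, so the groups overlapped.

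Of 7 transcripts for making or clearing oxidants, 6 were tested, 2 were higher in juveniles and 4 in adults, 0 were called (3 at an unadjusted edgeR p under 0.05), and the median was -0.48. Dual oxidase 2-like, a source of hydrogen peroxide, had the highest mean level and a log2 fold change of -1.26. A ferritin transcript of locus 2435, for iron storage, had the largest difference, 1.67 (SE 0.42, edgeR adjusted p = 0.560). All 4 chaperone transcripts were tested and higher in adults, 0 were called (0 at an unadjusted edgeR p under 0.05), and the median was -0.35. Among them gp96 of the endoplasmic reticulum had the highest mean level and hsc70, the constitutive chaperone, the largest difference (-0.72, edgeR adjusted p = 0.560). Over all 9979 transcripts 42.5% were higher in adults.

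**Figure D5:**
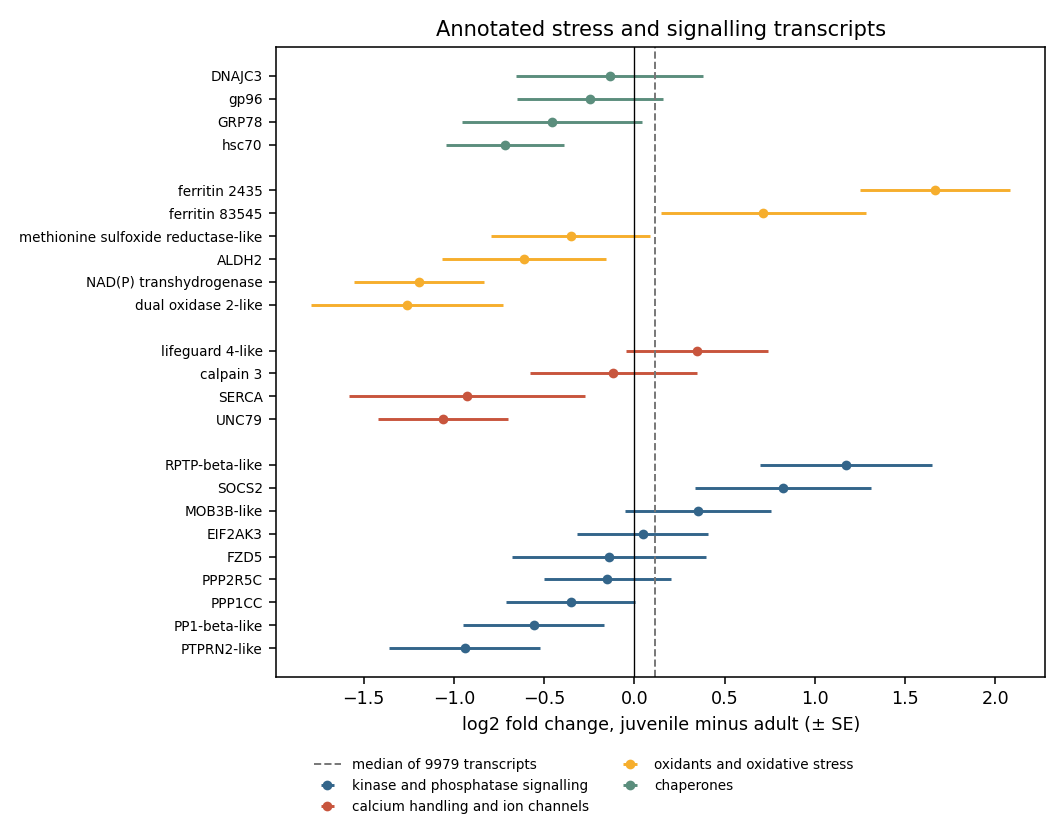
Log2 fold change, juvenile minus adult, with its SE for each tested transcript of the signalling, calcium, oxidant and chaperone lists (colours), beside the median of 9979 transcripts (dashed, 0.11). None was called; most points lie left of the dashed line, from -1.26 to 1.67.

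The annotated transcripts whose pattern over the 6 animals was most like that of each named transcript were found by the root mean square distance of centred log2 CPM, among 247 annotated tested transcripts. For MAPK14-1 transcript 2 these were a retinol dehydrogenase 12-like transcript (0.27), one matched to a turbot chromosome without a gene name (0.38) and one matched to a hypothetical protein of the limpet Lottia gigantea (0.39), against a median distance of 0.70. The retinol dehydrogenase 12-like transcript stood at 9.32, 9.97, 6.43 and 9.09 CPM in Captivity 1 to 4, and at 8.48 and 5.21 CPM in Captivity 5 and 6. Like transcript 2 it was low in Captivity 3 and 6, but Captivity 4 was not its highest animal.

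For TRPM2-like transcript 11 the nearest were abcc8b, an ATP-binding cassette protein (0.20), the transcription activator BRG1 (0.22) and an alpha-2-macroglobulin-like transcript (0.22), against a median of 0.53. With TMM scaling all of them were highest in Captivity 6, abcc8b at 20.9 CPM, BRG1 at 14.8 CPM and the alpha-2-macroglobulin-like transcript at 36.7 CPM. In the juveniles abcc8b lay between 9.05 and 10.7 CPM. The likeness is a description over 6 animals that share their scaling factors, and carries no test.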

How the data were processed

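Per the labels and the study's methods, stranded mRNA libraries of single animals were sequenced as paired ends, mapped by the authors with HISAT2 to a transcriptome assembled from wild animals, and counted per transcript from unique matches. The sources used here give neither the HISAT2 version nor the counting program. The deposited values are raw counts, 1 column per animal, and were used as they stand. No wild library was analysed here, and no 2 columns were identical.

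R 4.3.3, edgeR 4.0.16, limma 3.58.1 and DESeq2 1.42.0 were used. Transcripts with 3 CPM on library totals in at least 3 juveniles and 2 adults were tested with edgeR's quasi-likelihood test, TMM and Benjamini-Hochberg adjustment, without covariates, in a fit over all 6 animals. Members that missed the filter were taken from the fit without one. Each fit set its own TMM factors over the transcripts or loci in it. The printed CPM use the factors of the transcripts that passed the filter. The quasi-likelihood test gives no SE, so its SEs were taken as the absolute log2 fold change over the square root of the F statistic. Log2 CPM for spread and likeness used a prior count of 2. Shares were tested by exact permutation, with Wilson intervals at 95%. The edgeR p-values set a group difference against the spread between these animals, estimated with help from the other transcripts of the fit. Permutation p-values rank a difference among all assignments of the animals to the groups.

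Members and lists were chosen with earlier results of these data known. Names came from the study's annotated sheets, of which all 326 transcripts were found. An item of the signalling list is not reported here and was taken out of that list after the analysis, so the counts and median of that list leave it out. Within lists, the highest member, the one with the largest difference and any called were named, and the 3 most like transcripts for each named transcript. Alternatives covered normalization, tool, filter, mitochondrial and ribosomal RNA loci (11) and each animal left out.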

Additional observations from a re-analysis of the deposited data

How the results depend on the processing

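No adjusted p of a member or locus sum fell under 0.05 in any alternative run. Called transcripts numbered 190 with DESeq2, 11 with the edgeR exact test and 7 without filter, in place of 0, and called loci 154, 7 and 12. Loci called for transcript usage were 0 with the 3 CPM filter and 2 to 19 with an animal left out, in place of 3. On library totals alone the log2 fold change was 0.17 for TRPM2-like transcript 11, 0.59 for its locus sum, 0.56 for the MAPK14-1 locus sum and 0.26 for its transcript 7, each of the other sign than as tested. Upper quartile scaling gave -0.048 for MAPK14-1 transcript 2 and -0.0056 for TRPM2-like transcript 6. With filterByExpr these were -0.0029 and -0.15, and transcript 6 was at -0.061 without filter. The filterByExpr medians were 0.037 for calcium handling and 0.34 for neural markers (-0.41 as tested). Leaving out each animal gave ranges of -0.28 to 0.54 for MAPK14-1 transcript 2, -1.16 to 0.11 for transcript 7, -0.65 to 1.14 for the locus sum, -0.80 to -0.17 for TRPM2-like transcript 11, -0.17 to 0.13 for transcript 6 and -0.33 to 0.045 for its locus sum. The difference in share ran from -34.8 to 15.9 points for MAPK14-1 and from -8.00 to -2.40 points for TRPM2-like. Transcript 7 has no value without Captivity 5, since the remaining adult is at 0. On library totals the SD of log2 CPM was 0.81 for MAPK14-1 transcript 2 and 0.45 for TRPM2-like transcript 6 and 0.31 for its transcript 11. The MAPK14-1 members have no value under the 3 CPM filter. The cause was not tested. No paired analysis was possible because juveniles and adults share no number in the labels. With 2 adults, of which 1 stands apart in scaling, and 52 to 440 reads in the MAPK14-1 locus, these animals leave the differences between groups with the SEs given above.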
